A study of Homo sapiens with 4 samples.

Results

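The immediate early genes followed here in the embryonal carcinoma line NCC-IT-A3 were EGR1, FOS, FOSB, FOSL1, JUN, JUNB, JUND, IER2, IER3 and MYC. They were chosen by name, by mapping the gene IDs of the files to current symbols, and all 10 of 10 were found among 27685 gene IDs. The members and the gene lists below were chosen with earlier results of these data known, so their counts are not independent support. Embryonal carcinoma cells are malignant germ cells that resemble cells of the early embryo. One group of 2 libraries came from cells kept for 4 days in 100 nM barasertib, an inhibitor of the mitotic kinase Aurora B (the sample titles spell it Barasetib), and the other group of 2 came from cells kept in DMSO, the solvent. Both groups were grown in RPMI medium with fetal bovine serum and rinsed in buffered saline before lysis, and the labels name no genotype or batch that differs. Nothing in the labels tells whether the 2 libraries of a group were grown apart. The p-values therefore measure no more than the spread among these 4 samples, and that spread may be technical.

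Immediate early genes are transcribed within minutes of a growth factor, serum or stress signal, without new protein synthesis, through factors already bound at their promoters, such as serum response factor with its ETS partners and CREB. EGR1 is a zinc finger factor, the FOS and JUN proteins pair through leucine zippers to form the dimer AP-1, and MYC pairs with MAX to drive growth genes. IER2 encodes a small nuclear protein and IER3 a regulator of survival and of ERK signalling, so the label transcription factors is loose for the last of these. Their messages and proteins are short-lived as a rule, and JUND is known as the member that is present without stimulation.

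Values are TPM, a transcript abundance per length and per library, so levels can be compared between genes. Changes are differences of mean log2(TPM + 1) ± SE, barasertib minus DMSO, tested with limma across the 13938 genes whose mean reached 1 TPM, with Benjamini-Hochberg adjustment over all of them and a threshold of 0.05. The coverage and FPKM columns imply 4.22 to 4.59 Gb of aligned bases per library. All 12 embryonal carcinoma markers reached 1 TPM, among them POU5F1 at 3524 to 3999 TPM. With barasertib 5 of them rose (POU5F1, NANOG, LIN28A, DPPA4 and DNMT3B) and 2 fell (SOX2 and CRIPTO), against 22.0% and 7.44% of all tested genes. Under median-of-ratios scaling and quantile normalisation the median change of all genes, 0.11 in TPM, moves by -0.12 and -0.12, so members are also given under these scalings. The marker calls are in TPM only. There POU5F1 was at 3708 and 3524 TPM with DMSO and at 3999 and 3949 TPM with barasertib.

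The promoter letters of the members are shown first. Whether they bear on the changes was not tested. RefSeq windows (build GRCh38.p14) from 250 bases before to 50 after the start matched 7 members, and FOSL1, IER3 and MYC had no entry. The stretches below end before the start and run 5′ to 3′ on the gene's strand. Capitals mark the CArG box bound by serum response factor, the cyclic AMP response half-site TGACG on either strand (CGTCA when read on the other) and the TATA box TATAAA. They are EGR1 at chr5:138465329-138465428 (plus strand), FOS at chr14:75278728-75278807 (plus), FOSB at chr19:45467916-45467975 (plus), JUNB at chr19:12791336-12791465 (plus) and JUND at chr19:18281693-18281832 (minus).
EGR1: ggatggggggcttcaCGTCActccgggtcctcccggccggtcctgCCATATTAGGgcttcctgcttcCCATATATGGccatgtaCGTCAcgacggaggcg
FOS: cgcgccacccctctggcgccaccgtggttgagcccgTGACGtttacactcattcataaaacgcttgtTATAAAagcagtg
FOSB: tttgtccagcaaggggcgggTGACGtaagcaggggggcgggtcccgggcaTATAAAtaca
JUNB: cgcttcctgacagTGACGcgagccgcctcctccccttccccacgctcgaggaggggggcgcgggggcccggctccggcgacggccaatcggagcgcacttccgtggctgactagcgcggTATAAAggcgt
JUND: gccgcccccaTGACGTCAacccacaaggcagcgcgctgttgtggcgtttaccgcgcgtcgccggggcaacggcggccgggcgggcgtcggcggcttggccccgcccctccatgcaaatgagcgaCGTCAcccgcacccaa

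All 7 matched members held TGACG on one strand or the other, against 25.0% of all 27305 promoter windows. EGR1 held 2 CArG boxes, starting 105 and 83 bases before the start, and was the only one of the 7 with any in its window. Such a box was in 1.29% of all windows. Bases further than 250 before the start were not searched, so a box there would be missed. FOS, FOSB and JUNB held TATAAA (either strand), starting 33, 30 and 31 bases before the start, against 12.0% of all windows. JUND alone of the 7 held the full palindrome TGACGTCA, which contains TGACG on both strands, against 1.98% of all windows, and had 6 matches to the GC box GGGCGG (either strand). The GC box was in 5 of the 7 and in 44.6% of all windows. The AP-1 site TGACTCA and the E-box CACGTG, both searched on either strand, were in none of the 7, against 4.92% and 7.43% of all windows. The shares above are over all windows, whether or not the gene was tested. Of the 10907 tested genes with a window, 7698 held the GC box, 3793 TGACG and 596 TATAAA. TGACGTCA was in 367 of them, TGACTCA in 309, CACGTG in 1115 and a CArG box in 113. Among the 10907, 22.5% rose, and of those with TGACG 23.2% did (879 of 3793). With a CArG box 30.1% rose (34 of 113) and 11.5% fell, and with TATAAA 32.6% rose (194 of 596) and 9.06% fell. A match describes letters and is not evidence of binding.

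**Figure D1:**
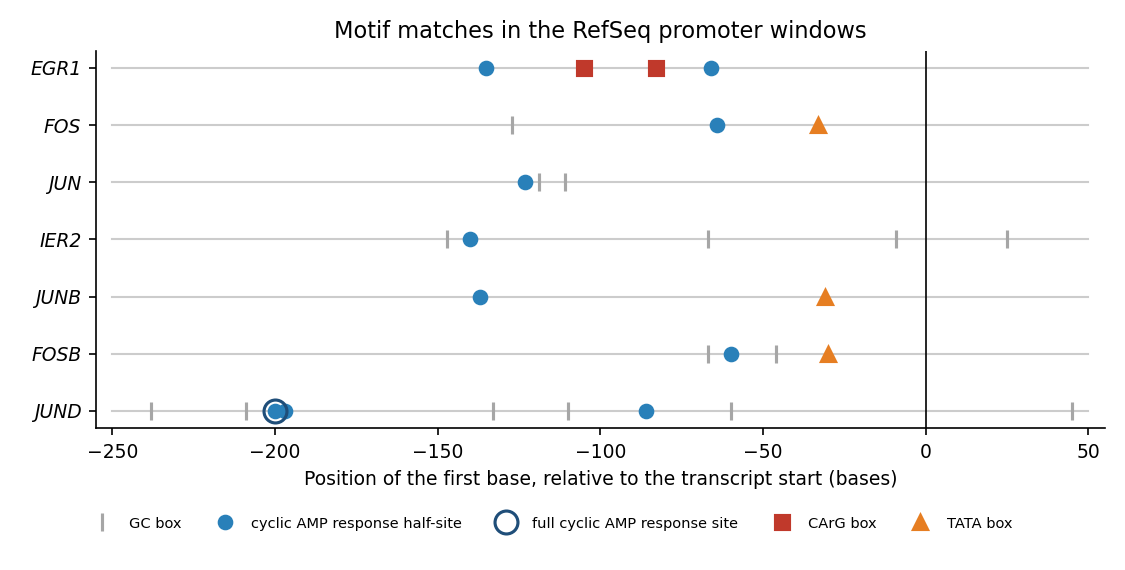
Motif matches in the promoter windows of 7 immediate early genes, ordered from the largest change (top) to the smallest; the x axis is the position of a match's first base relative to the transcript start, in bases. Within these windows only EGR1 carries CArG boxes, FOS, FOSB and JUNB carry a TATA box 30 to 33 bases before the start, and JUND carries the full cyclic AMP response site with 6 GC boxes. Sites further upstream were not searched.

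Of the 10 members 9 passed the minimum of 1 TPM, and 9 of those 9 rose with barasertib while 0 fell, against 22.0% of all tested genes that rose and 7.44% that fell. No tested member had a negative estimate, so 0 also fell at an unadjusted p under 0.05. FOSB stayed under the minimum and was not tested. The DMSO mean of FOSL1, 0.923 TPM, was also under 1 TPM, and FOSL1 passed only through its barasertib mean of 4.02 TPM. It is counted in the 9, and among those that rose by at least 1. The median change of the 9 was 1.14 on the log2 scale, against 0.11 for all tested genes. In 10 of 10 members both barasertib libraries lay above both DMSO libraries, as they did for 49.1% of tested genes. A rise of at least 1 on the log2 scale was seen in 6 of the 9, against 2.09% of tested genes. That count moves with the pseudocount: at 5 only EGR1 (1.48), JUN (1.03) and IER3 (1.15) reached 1, and at 0.1 JUNB (1.16) did as well as the 6. FOS ran from 0.61 at a pseudocount of 5 to 1.62 at 0.1, and FOSL1 from 0.60 to 1.99. Under all 3 scalings 7 rose, against 10.0% of tested genes, and the exceptions were JUNB and JUND; 0 fell under all 3, against 7.05%. Summed over the 10 genes, the level was 209 and 203 TPM with DMSO and 345 and 318 TPM with barasertib. RNA was taken from whole cultures, so more cells with these messages and more message per cell cannot be told apart.

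**Figure D2:**
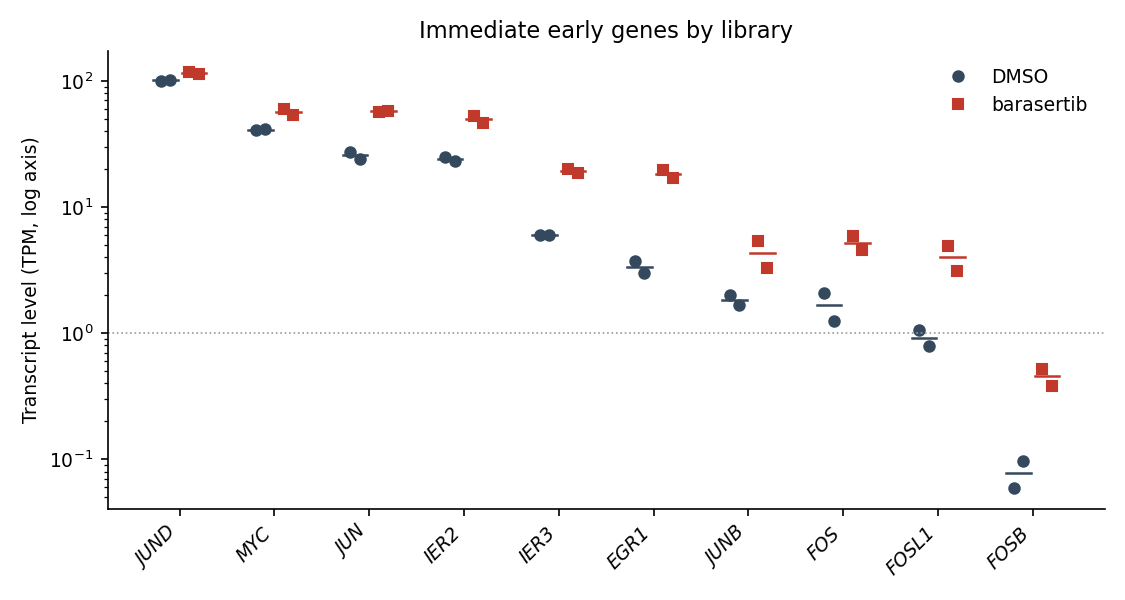
TPM of each immediate early gene in each library on a log axis, ordered by the DMSO mean; circles are DMSO libraries, squares barasertib libraries, short lines group means, and the dotted line marks 1 TPM. In every gene both squares lie above both circles, with a narrow gap in JUND (100.6 and 102 TPM against 119 and 113 TPM) and a wide one in EGR1 (3.72 and 2.99 TPM against 19.7 and 16.9 TPM).

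EGR1, the growth factor-induced zinc finger regulator, had the largest change of the 9 tested members; by the ratio of mean TPM, untested FOSB was higher (5.84 against 5.45). Its level was 3.72 and 2.99 TPM with DMSO and 19.7 and 16.9 TPM with barasertib. Both treated libraries were several times above both controls, and the spread within each group was small beside that gap. The change of EGR1 was 2.15 ± 0.13 (limma adjusted p = 0.000428), rank 13 of 13938 by size of rise, and it passed the test under all 14 alternative settings. In the hg19 coordinates of the files EGR1 (gene ID 1958) spans chromosome 5 from 137801181 to 137805004 on the plus strand.

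The FOS proteins bind DNA in dimers, such as those with JUN proteins, and the 3 FOS family members had low message levels, as JUNB did. FOS was at 2.09 and 1.24 TPM with DMSO and at 5.85 and 4.55 TPM with barasertib. FOSL1 (FRA-1), a family member that lacks the activation domain of FOS, was at 1.06 and 0.788 TPM with DMSO and at 4.91 and 3.14 TPM with barasertib. The groups overlapped in neither gene, and within the barasertib group replicate 1 was the higher in both. FOS rose by 1.23 ± 0.20 (limma adjusted p = 0.00844) and FOSL1 by 1.37 ± 0.22 (limma adjusted p = 0.00731). The FOS call was lost without barasertib replicate 1 (change 1.08, limma adjusted p = 0.0652; range over its settings 0.00229 to 0.0652). FOSL1 passed in all 13 alternatives that tested it, with a highest limma adjusted p of 0.0485, again without barasertib replicate 1. FOSB was at 0.0592 and 0.0964 TPM with DMSO and at 0.524 and 0.385 TPM with barasertib. Mean read depth over FOSB was only 0.107 and 0.187 with DMSO and 1.04 and 0.749 with barasertib, so its level rests on few reads. With no filter on low values its change of 0.43 passed the test (limma adjusted p = 0.0407). FOS (gene ID 2353) lies on chromosome 14, 75745481 to 75748937, plus strand; FOSL1 (8061) on chromosome 11, 65659607 to 65667997, minus strand; FOSB (2354) on chromosome 19, 45971253 to 45978437, plus strand.

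The JUN proteins, which can pair with each other as well as with FOS proteins, split in size of change. JUN, the founding member, was at 27.3 and 24.2 TPM with DMSO and at 57.2 and 58.2 TPM with barasertib. JUNB, often a weaker activator than JUN, was at 2.01 and 1.66 TPM with DMSO and at 5.35 and 3.30 TPM with barasertib. JUND was at 100.6 and 102 TPM with DMSO and at 119 and 113 TPM with barasertib. JUN was higher in both treated libraries with tight replicates, JUNB libraries were spread widely under barasertib, and JUND groups were separate by a small margin. JUN rose by 1.14 ± 0.08 (limma adjusted p = 0.000588) and passed in all 14 alternatives. JUNB rose by 0.89 ± 0.21 (limma adjusted p = 0.0277), a call that held in 8 of 13 alternatives and was lost without barasertib replicate 1 (0.60, limma adjusted p = 0.110), without DMSO replicate 2 (0.80, 0.0622), after quantile normalisation (0.0653), with no filter on low values (0.0748) and with no mean-variance trend (0.0539). JUND rose by 0.19 ± 0.05 (limma adjusted p = 0.0373) in TPM, but by only 0.06 (0.462) after median-of-ratios scaling and 0.08 (0.275) after quantile normalisation. The JUND call held in 5 of 14 alternatives and did not survive leaving out any single library (0.0606 to 0.139 by limma, adjusted p). JUN (gene ID 3725) spans chromosome 1 from 59246463 to 59249785 on the minus strand, JUNB (3726) chromosome 19 from 12902310 to 12904125 on the plus strand and JUND (3727) chromosome 19 from 18390504 to 18392466 on the minus strand.

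The make-up of the AP-1 messages differed between groups. JUND made up 77.4% and 79.8% of JUN family TPM with DMSO and 65.5% and 64.7% with barasertib. The ratio of JUN to JUND was 0.271 and 0.237 with DMSO and 0.482 and 0.516 with barasertib, so the groups did not overlap (exact permutation test, two-sided, p = 0.333, the smallest that 2 against 2 libraries can give). Within the FOS family, counted with FOSL2, FOSL2 held 44.1% and 51.3% with DMSO and 21.9% and 26.1% with barasertib, while FOSL1 held 18.4% and 18.0% and then 34.0% and 28.7%. FOSL2 itself was at 2.53 and 2.24 TPM with DMSO and at 3.16 and 2.85 TPM with barasertib, a change of 0.24 with a 95% interval of -0.11 to 0.59 (limma adjusted p = 0.245). JUN family messages outnumbered FOS family messages 22.6 and 29.3 to 1 with DMSO and 12.6 and 16.0 to 1 with barasertib. These shares follow from the levels above; the groups did not overlap in any share or ratio given here, each with the same exact permutation p of 0.333.

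**Figure D3:**
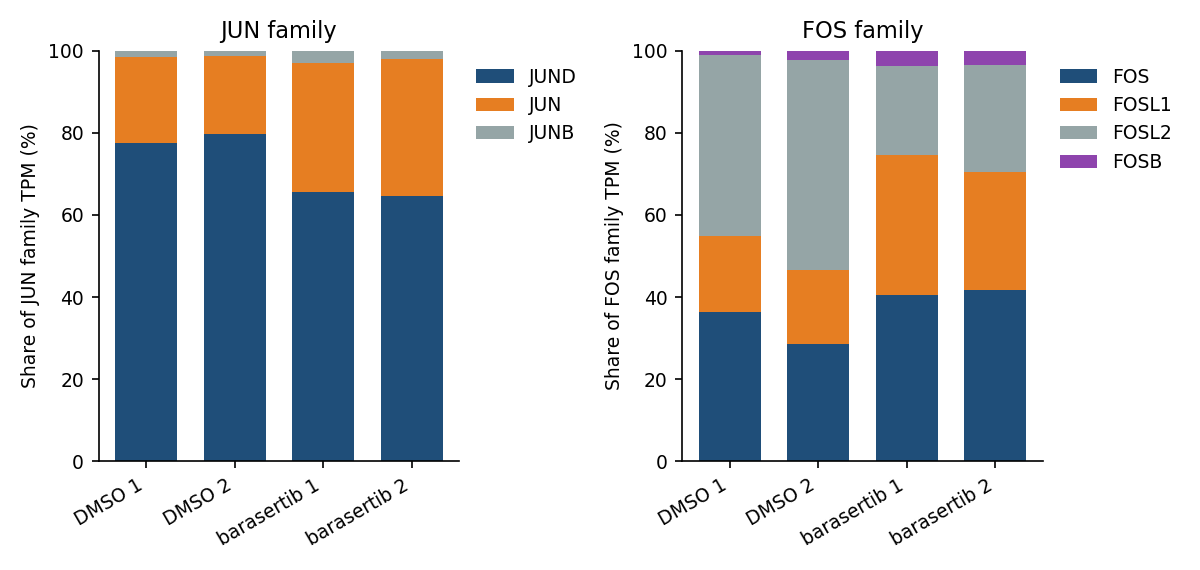
Share of each gene in the summed TPM of the JUN family (left) and of the FOS family (right), in percent, in each of the 4 libraries. JUND takes 77.4% and 79.8% of the JUN family in the DMSO libraries and 65.5% and 64.7% in the barasertib libraries, and in the FOS family the share of FOSL2 is lower, and those of FOS, FOSL1 and FOSB higher, in the barasertib libraries.

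IER2 and IER3, named for their immediate early response, both rose. IER2 was at 25.1 and 23.1 TPM with DMSO and at 52.9 and 46.1 TPM with barasertib. IER3 was at 6.01 and 6.02 TPM with DMSO and at 20.1 and 18.7 TPM with barasertib. IER3 replicates were nearly identical in the controls, and neither gene's groups overlapped. IER2 rose by 1.01 ± 0.09 (limma adjusted p = 0.00122), although under 1 on the log2 scale after median-of-ratios scaling (0.88) and quantile normalisation (0.92). IER3 rose by 1.54 ± 0.09 (limma adjusted p = 0.000357). On this scale that was the largest change of a tested member after EGR1, but at a pseudocount of 0.1 FOSL1 (1.99) exceeded IER3 (1.67). Both calls held in all 14 alternatives. IER2 (gene ID 9592) lies on chromosome 19, 13261282 to 13265718, plus strand, and IER3 (8870) on chromosome 6, 30710976 to 30712327, minus strand.

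MYC, the growth regulator, was at 41.0 and 41.2 TPM with DMSO and at 59.9 and 53.8 TPM with barasertib. The control libraries were almost the same and both treated libraries lay above them. MYC rose by 0.46 ± 0.07 (limma adjusted p = 0.00676), by 0.32 (0.0243) after median-of-ratios scaling and by 0.36 (0.0187) after quantile normalisation, and passed in all 14 alternatives (highest limma adjusted p 0.0363). MYC (gene ID 4609) spans chromosome 8 from 128748315 to 128753680 on the plus strand.

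**Figure D4:**
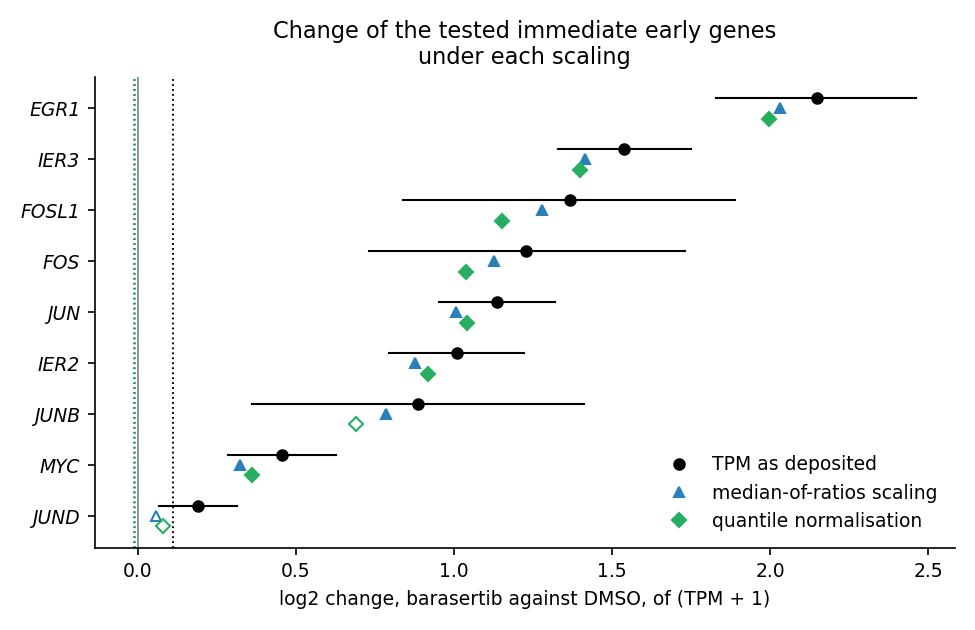
Change of the 9 tested immediate early genes on the log2(TPM + 1) scale, barasertib minus DMSO, in TPM (circles, with 95% interval), after median-of-ratios scaling (triangles) and after quantile normalisation (diamonds); open symbols did not pass the test, and dotted lines are the median of all tested genes under each scaling. Changes run from 0.19 for JUND to 2.15 for EGR1, and open symbols occur in JUND and JUNB.

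By level, JUND was first in both groups and FOSB last. With DMSO the order was JUND, MYC, JUN, IER2, IER3, EGR1, JUNB, FOS, FOSL1 and FOSB, in which JUN and IER2, and JUNB and FOS, overlapped. With barasertib JUN and MYC overlapped, as did IER3 and EGR1, FOS and JUNB, and JUNB and FOSL1. Replicates were not symmetric: barasertib replicate 1 was the higher library for 9 of 10 members, JUN being the exception, against 47.5% of all tested genes. In the DMSO group replicate 1 was higher for 6 of 10, against 47.3%. Of the 33 other primary response genes tested below, 23 were higher in barasertib replicate 1 and 14 in DMSO replicate 1. Without barasertib replicate 1, 6 members still rose, and FOS, JUNB and JUND did not pass.

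The members were short genes. They span 1352 to 8391 bases in the files, against a median of 26648 for tested genes. JUN, JUNB and JUND have 1 exon in every basic coding transcript of GENCODE 29, as do 1.76% of the tested genes with such a transcript. The other members have 2 to 5 exons. Of the 3049 tested genes no longer than the longest member 25.1% rose and 8.63% fell, against 21.2% and 7.11% of longer genes, and of intronless tested genes 25.9% rose. The pentamer ATTTA, the core of AU-rich instability elements, occurs at least 3 times in the 3′ untranslated region of FOS, FOSB, JUN, IER3 and MYC, that is 5 of 10 members, against 45.7% of the tested genes with such a region. Of tested genes with at least 3 copies 20.0% rose, and of those with 0 copies 25.6% did. No other gene with a symbol overlaps a member in the files; the span of 1 record without a symbol covers IER3 and most of its chromosome, at 0.653 to 1.10 TPM.

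Other immediate early and delayed primary response genes, from a list of 38 chosen with earlier results of these data known, rose as well. Of 33 tested, 22 rose and 1 fell, against 22.0% and 7.44% of all tested genes, at a median change of 0.55. Under all 3 scalings 18 rose and 1 fell, against 10.0% and 7.05% of all tested genes. CCN1 and CCN2, matrix proteins of the serum response, rose from 12.7 ± 0.19 to 35.0 ± 0.55 TPM (1.39 ± 0.07, limma adjusted p = 0.000304) and from 2.32 ± 0.38 to 8.13 ± 1.25 TPM (1.46 ± 0.15, limma adjusted p = 0.00201; SD, n = 2). HES1, a repressor downstream of Notch, rose from 7.94 ± 1.63 to 22.7 ± 1.94 TPM, and GADD45B, a stress-induced signalling protein, from 5.90 ± 0.49 to 15.5 ± 0.45 TPM. The other 5 genes of the list were under the minimum, the EGR1 relatives EGR2, EGR3 and EGR4 among them, with EGR3 at 0.297 and 0.120 TPM with DMSO and 0.822 and 0.740 TPM with barasertib and EGR4 listed at 0 in all 4 libraries (named after their values were seen). The neuronal gene ARC rose by 1.23, NR4A1, an orphan nuclear receptor, by 0.78 and DUSP1, a MAP kinase phosphatase, by 0.56, while KLF4 fell by 0.25 (all 4 named after their values were seen). ARC passed the minimum only through its barasertib mean of 2.49 TPM, against 0.486 TPM with DMSO. ZFP36, which destabilises messages with AU-rich elements, was at 2.08 and 1.95 TPM with DMSO and 2.14 and 2.37 TPM with barasertib (limma adjusted p = 0.611, named after its values were seen). Without barasertib replicate 1, 12 genes of the list rose, and without each of the other libraries 15 to 20 did; KLF4 passed without DMSO replicate 2 but not without any other single library.

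Upstream of these genes, few messages of the kinases and of the promoter-bound factors passed the test. Of 31 tested genes of the RAS, RAF, MEK, ERK, JNK and p38 pathways and of the SRF, ETS and CREB factors, 4 rose and 2 fell, against 22.0% and 7.44% of all tested genes, at a median of 0.04. ELK3, an ETS partner of SRF, rose by 0.39 (limma adjusted p = 0.0182) and MAP3K1, a kinase above JNK, by 0.39 (0.0303), but neither call held after median-of-ratios scaling. ELK3 was also lost without barasertib replicate 1 or 2 or DMSO replicate 1 (0.0541 to 0.0823) and MAP3K1 without any single library (0.0505 to 0.118). RPS6KA2, a ribosomal S6 kinase activated by ERK, fell by 0.70 (limma adjusted p = 0.00231). SRF was at 33.2 and 24.9 TPM with DMSO and 26.8 and 30.5 TPM with barasertib, a change of -0.01 with a 95% interval of -0.35 to 0.33 (named after its values were seen). After median-of-ratios scaling 0 rose and 7 fell, beside 1534 and 1891 of all 13938 genes. After quantile normalisation 1 rose and 5 fell, beside 1649 and 1590 of all genes. Leaving out each library in turn gave 0 to 3 that rose and 1 to 2 that fell. Messages do not report kinase activity, which was not measured.

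Among 13 other AP-1 and leucine zipper partner genes, 5 of 11 tested rose and 3 fell, against 22.0% and 7.44% of all tested genes, at a median of 0.24. Under all 3 scalings 10.0% of all tested genes rose and 7.05% fell. MAF, a large leucine zipper factor, fell from 49.6 ± 2.63 to 36.9 ± 0.86 TPM (-0.41 ± 0.07, limma adjusted p = 0.00735). MAFF rose by 0.62 and BATF3 by 0.56, calls lost without barasertib replicate 1 (limma adjusted p of 0.0950 and 0.0668) and after quantile normalisation; BATF3 was also lost without barasertib replicate 2 (0.0927) or DMSO replicate 1 (0.0676), and MAFF without DMSO replicate 2 (0.0570). Under all 3 scalings 1 rose and 3 fell, and with any 1 library left out 2 to 3 rose and 1 to 3 fell.

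Genes known to respond to EGR1 and AP-1, with their corepressors, rose for the most part. Their list too was chosen with earlier results of these data known. Of 20 tested out of 30, 15 rose and 2 fell, against 22.0% and 7.44% of all tested genes, and 12 and 1 under all 3 scalings, against 10.0% and 7.05%, at a median of 0.63. SPP1 (osteopontin) rose from 126 ± 0.03 to 346 ± 3.05 TPM and ITGA5, an integrin subunit, from 4.97 ± 0.14 to 13.2 ± 0.69 TPM. PLAU, the urokinase and a classical AP-1 target, fell from 283 ± 22.2 to 95.4 ± 0.36 TPM (-1.56 ± 0.06, limma adjusted p = 0.000164). NAB2, a corepressor induced by EGR1 that binds it in turn, rose from 3.38 to 9.17 TPM in the mean (1.21, limma adjusted p = 0.00362, named after its values were seen). VIM (vimentin), the most abundant of the list and also named after its values were seen, fell by 0.31, so that the summed level fell, from 4477 and 4262 TPM with DMSO to 3945 and 3814 TPM with barasertib, while the median rose. The VIM call did not hold under all 3 scalings. The other 10 genes of the list, among them the collagenase MMP1, were under the minimum and not tested.

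Partners of MYC changed in few cases and its targets in part. Of 16 tested genes of the MAX and MXD network 2 rose (ZBTB17 and WDR5) and 1 fell (MYCL), against 22.0% and 7.44% of all tested genes, at a median of 0.01. After median-of-ratios scaling 0 of the network rose and 2 fell, beside 1534 and 1891 of all 13938 genes. ZBTB17, a zinc finger partner of MYC, rose by 0.33 and WDR5, a chromatin cofactor, by 0.27, and MYCL, a MYC relative, fell by 0.29 (limma adjusted p = 0.0185, 0.0196 and 0.0183). The MYCL call was lost without any single library (0.0603 to 0.0754), ZBTB17 without replicate 1 of either group (0.0792 and 0.0689) and WDR5 without any library but DMSO replicate 2 (0.0522 to 0.0871). Without each library in turn 0 to 2 of the network rose and 0 fell. MAX was at 52.6 and 53.4 TPM with DMSO and 57.4 and 54.3 TPM with barasertib, and MYCN at 94.6 and 86.1 TPM and then 93.6 and 93.9 TPM, above MYC itself (both named after their values were seen). Of 34 growth and nucleolar genes known as MYC targets 15 rose and 1 fell, against the same 22.0% and 7.44%, at a median of 0.15. SRSF1, a splicing factor, rose from 64.0 ± 3.83 to 142 ± 1.51 TPM (1.14 ± 0.06, limma adjusted p = 0.00034), LDHA (lactate dehydrogenase) from 85.8 ± 17.3 to 146 ± 1.15 TPM, NME1, a nucleotide kinase, from 169 ± 9.25 to 279 ± 10.7 TPM and ODC1, the first enzyme of polyamine synthesis, from 65.0 ± 3.67 to 98.7 ± 4.80 TPM. Leaving out barasertib replicate 1 or 2 ended the LDHA call (limma adjusted p = 0.0587 and 0.0597). NPM1 (nucleophosmin) fell by 0.28 and is likewise a gene named once its values had been seen. After median-of-ratios scaling 6 of the targets rose and 6 fell, beside 1534 and 1891 of all 13938 genes, and the targets that rose numbered 6 and 7 when barasertib replicate 1 or 2 was left out and 9 when DMSO replicate 1 was.

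**Figure D5:**
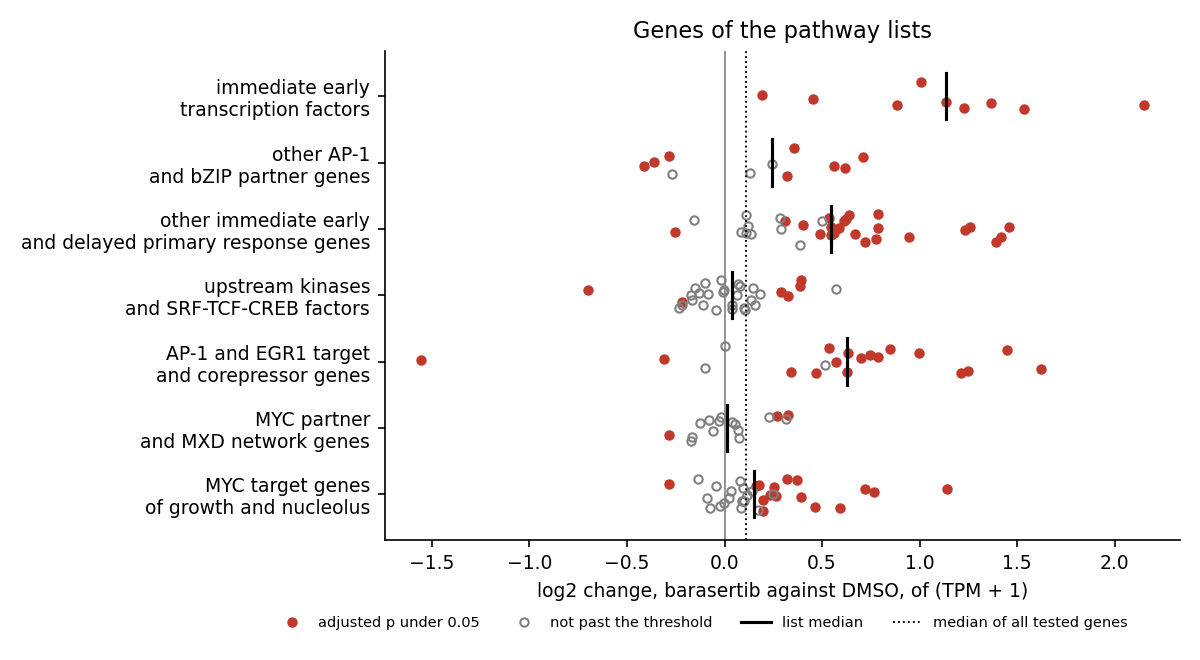
Change of each tested gene in 7 lists on the log2(TPM + 1) scale, barasertib minus DMSO; filled points passed the test, open points did not, black bars are list medians and the dotted line is the median of all tested genes (0.11). The immediate early members, the other primary response genes and the EGR1 and AP-1 targets have medians of 1.14, 0.55 and 0.63, and the upstream and MYC partner lists of 0.04 and 0.01.

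Markers of other cell types differed in level and were not all alike between groups. The summed level of 8 fibroblast markers was 4.42 and 5.59 TPM with DMSO and 8.58 and 7.86 TPM with barasertib, with FAP listed at 0 and COL1A2 at 0 in 3 of 4 libraries; S100A4, a calcium-binding protein, rose from 2.74 and 3.29 to 4.996 and 4.65 TPM. Of 8 yolk sac and endoderm markers none reached 1 TPM (sums of 0.538 and 0.792, then 2.02 and 1.25 TPM, with TTR and CER1 listed at 0). The 7 trophoblast markers found, of 8, summed to 53.4 to 54.7 TPM with DMSO and 60.4 to 62.8 TPM with barasertib, nearly all of it TFAP2C, with KRT7 and CGB5 listed at 0. Neural markers summed to 190 to 202 and 193 to 196 TPM, nearly all of it TUBB3 and STMN2, with NEUROD1 listed at 0. TUBB3, a neuronal tubulin, rose from 76.2 and 74.4 TPM to 90.6 TPM in the lower barasertib library, and STMN2, a microtubule regulator of neurons, fell from 110.2 and 123 to 89.5 and 96.5 TPM. Their part in the rise of the immediate early genes was not tested.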

How the data were processed

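Per the labels' protocols, RNA was purified on columns and made into stranded libraries of polyadenylated RNA. Per the submitters' processing notes, HISAT2 and StringTie were used with build hg19; for versions, options and use of strand nothing is given in the sources used here. The deposited files give TPM (summing to 1000000 per library), FPKM and coverage, a signal of mean depth per gene, per the file headers. The files used here hold no read totals, so aligned bases were taken by dividing the deposited coverage by FPKM (4.59 and 4.52 Gb for barasertib, 4.22 and 4.43 Gb for DMSO).

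Rows were summed per gene ID; RefSeq (GRCh38.p14, names only) gave symbols to 27559 of 27685 IDs. Limma 3.58.1 (R 4.3.3) was fitted to log2(TPM + 1) with group as the term, a mean-variance trend and a two-sided test (2 residual and 4.09 prior degrees of freedom), on genes whose mean reached 1 TPM. The fit was tested on simulated data. Figures used matplotlib 3.10.9. Promoter windows came from RefSeq and transcripts from GENCODE 29 (longest basic coding transcript; ATTTA counts, and the replicate comparison, were added after the data were seen). Members, lists and tests were chosen with earlier results of these data known. Named genes are all members, and per list up to 4 called genes with the largest change; others are marked where they appear, and 3 genes that the rule names are not reported here. A planned comparison of protein sequences was not made.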

Additional observations from a re-analysis of the deposited data

How the results depend on the processing

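Of the 9 members that rose, EGR1, FOSL1, JUN, IER2, IER3 and MYC passed the test in every alternative that tested them, and the count of members that rose ran from 6 to 9 over 14 alternatives, with 0 that fell in each; the 6 with a minimum of 5 TPM are all the members tested there. Of 124 member values under alternatives 108 kept their side of the threshold and 15 lost it (9 in JUND, 5 in JUNB and 1 in FOS), and FOSB gained a call. Of 322 values of other named genes 40 lost the call and 0 reversed. Over all genes 1534 rose and 1891 fell after median-of-ratios scaling, 1649 and 1590 after quantile normalisation, 674 fell without the mean-variance trend, and with 1 library left out 1365 to 2181 rose and 601 to 699 fell; the cause was not tested. With 1 library left, an arm is assumed to vary like the other group. The replicate number as a block left 9 members called (3218 and 1080 genes in all). Deviations of same-numbered libraries correlated at r = 0.0229 across genes. A correlation over all genes cannot tell whether same-numbered libraries were handled together. Depth limits FOSB, read less than 1 deep on average in 3 of 4 libraries. Mean depth in the DMSO libraries was also low for FOSL1 (1.96 and 1.49), FOS (3.87 and 2.42) and JUNB (3.72 and 3.22).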

Other observations

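Within the other AP-1 list the abundant partners of JUN proteins moved apart. ATF3, a stress-induced factor, had a mean of 55.2 TPM in the DMSO group and 69.0 TPM in the barasertib group (log2 change 0.32, limma adjusted p = 0.0091), a rise that did not pass under all 3 scalings. ATF2, a target of stress kinases, had means of 60.8 and 49.7 TPM in the same order (-0.29) and fell under all 3 scalings. CCND1, the cyclin that links AP-1 and MAP kinase signals to the cell cycle, rose from 60.5 to 122 TPM in the mean (1.00, limma adjusted p = 0.000571), and PDGFA, a growth factor gene regulated by EGR1, from 31.7 to 53.9 TPM (0.75, limma adjusted p = 0.00124), both under all 3 scalings. These 4 genes were named after their values were seen.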
